A study of Mus musculus with 4 samples.

Results

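This account compares a mouse single-cell RNA-seq library labelled 2DG_aPDL1, called the combination here, with the library labelled aPDL1, so that the 2 differ by label in 2DG alone. The members were all barcodes of these libraries in which 500 or more genes were detected and no more than 10% of UMIs (unique molecular identifiers, which count captured transcripts) were mitochondrial. They numbered 9044 cells in aPDL1 and 9294 in the combination, 18338 of the 35372 such cells in all 4 libraries of the series. After removal of likely doublets, 8338 and 8554 cells remained, and all class and gene values come from them. The most weight was given to cell types other than monocytes, neutrophils and CD8 T cells.

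The series title concerns glycans as a target in ovarian tumours given checkpoint blockade. Per the labels, the 4 libraries were ctrl (control), 2DG (2-deoxy-D-glucose), aPDL1, and both agents together, all from lymph node, with polyadenylated RNA captured in droplets at its 3' end. The labels gave no strain, genotype, age, tumour line, dose or time, and did not say how many animals a library holds. The design text speaks of young and aged mice, but no label says which library came from which. Each side of the comparison is 1 library, so no difference has a replicate check, no test was made, and the intervals given cover counting error only.

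2DG is a glucose analogue that is taken up and phosphorylated by hexokinase but cannot run through glycolysis, and as a mannose mimic it also disturbs the building of N-linked glycans on proteins. PD-L1, encoded by Cd274, is a ligand on tumour and antigen-presenting cells that binds PD-1 on T cells and restrains them, and antibodies to PD-L1 relieve that restraint. CTLA-4 is a second inhibitory receptor, which competes for CD80 and CD86 on antigen-presenting cells and is abundant on regulatory T cells.

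The libraries were of like depth, with medians of 6150 UMIs per kept cell in aPDL1 and 6247 in the combination, and they shared 28 barcodes. T and NK cells were 40.2% of aPDL1 cells and 39.2% of combination cells, against 45.7% in 2DG and 6.50% in ctrl, so ctrl stands apart in its makeup. B cells were at most 5.42% of a library, and monocytes, macrophages and dendritic cells together were 53.3% of aPDL1 and 51.6% of combination cells, while Ccl19 and Ccl21a, chemokines of lymph node stroma, had 0 UMIs in all 4 libraries. The lymph node label was therefore not borne out by these defining transcripts. Gm42418, an annotated transcript that overlaps ribosomal RNA sequence, took 3.98% of UMIs in ctrl, 5.83% in 2DG, 4.49% in aPDL1 and 2.50% in the combination. No transcript is removed by either agent, so none checks the treatment labels.

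Cells were grouped into classes from marker genes, and each class name means cells like that type. UMIs were summed over the cells of a class and scaled to the class total (CPM, counts per 1000000 UMIs of the class), and log2 ratios are of the combination over aPDL1. A gene was past the fold when its ratio was at least 1.5-fold, a log2 ratio of 0.58, and the library with more had 50 or more UMIs. There were 16 classes with at least 50 cells on each side.

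The clearest differences were shared by nearly all cell types. The classes of a library share that library and any free RNA in it, so they are no replicates of each other. Counts of classes describe only how widely a difference was seen. Of 4301 genes with enough UMIs in at least 10 classes, 35 were past the fold upward in 10 or more (0.814%) and 21 downward (0.488%). H2-T23, the gene of the non-classical MHC class I molecule Qa-1 that binds inhibitory NKG2A receptors, was past the fold in 14 of 14 classes. Its log2 ratios ran from 1.355 to 1.84, and its median over classes was 123.1 CPM in ctrl, 75.6 in 2DG, 55.5 in aPDL1 and 169.6 in the combination. Zfp36, which encodes an RNA-binding protein that shortens the life of cytokine messages, was past the fold in 15 of 15 classes, with medians of 483.3, 160.3, 169.4 and 541.5 CPM in the same order. By these medians the combination was the highest library for both genes and ctrl the next, so the order did not follow the number of agents given.

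Other genes of the upward set were the antiproliferative immediate early gene Btg2 (14 of 16 classes), the actin-binding gene Pfn1 (14 of 16), the transcription factor gene Klf2 (12 of 15), which drives exit and recirculation of lymphocytes, and Cebpb (12 of 12), a transcription factor gene of myeloid cells. Rpl22l1, Rpl4 and the nascent-chain factor gene Btf3 belong to the protein synthesis machinery and were past the fold in 14 of 15, 12 of 16 and 14 of 16 classes. Mpp7, Ell2, Dennd4a, Gm26532 and Ost4 were also among the genes past the fold in the most classes. Ribosomal protein genes have many near-identical copies in the genome, so their counts are uncertain.

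The downward set included transcripts that overlap sequence like ribosomal RNA. Lars2, the mitochondrial leucyl-tRNA synthetase gene, was lower in 16 of 16 classes with a median log2 ratio of -0.93, and Gm42418 in 14 of 16 with a median of -0.82. Gm42418 had medians of 48040 CPM in ctrl, 62620 in 2DG, 48400 in aPDL1 and 27500 in the combination. Camk1d, Gm26917, Il31ra and Cdk8 were lower too, each past the fold in at least 12 of 16 classes. The part of ribosomal RNA in these differences was not tested.

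**Figure D1:**
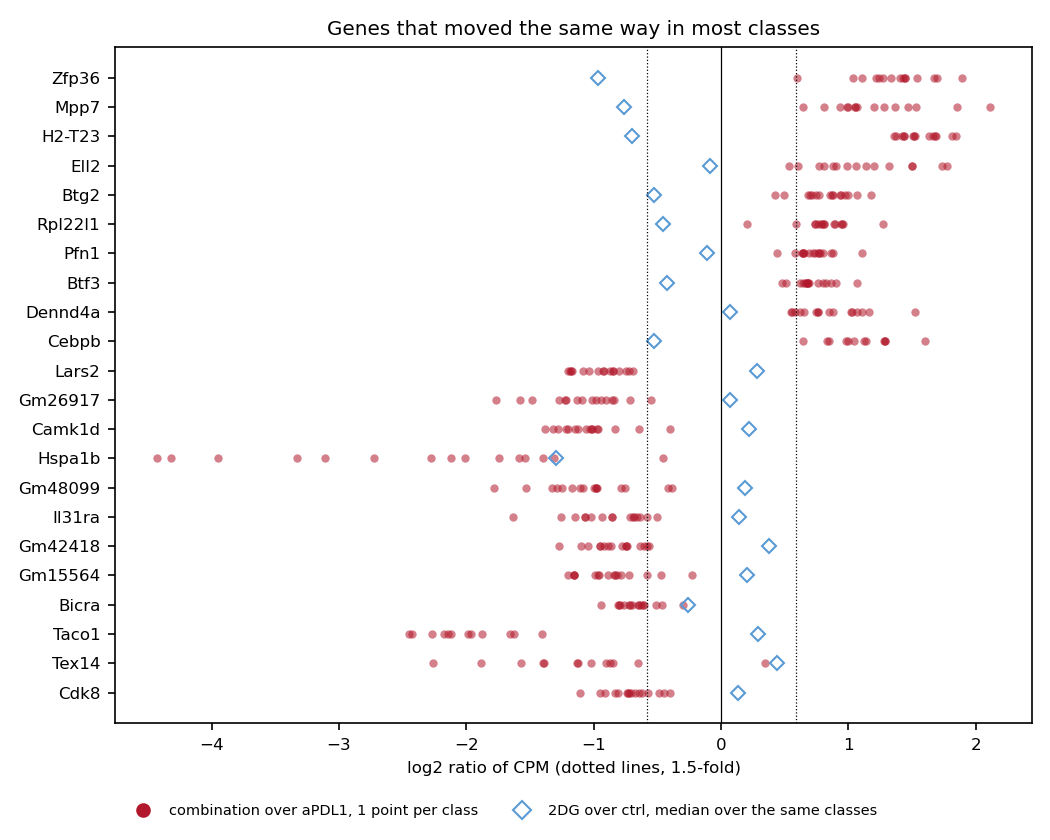
Log2 ratios of CPM for the genes past the fold in the most classes: each red point is the combination over aPDL1 in 1 class, the blue diamonds are 2DG over ctrl as the median over the same classes, and dotted lines mark 1.5-fold. The red points of Zfp36, Mpp7 and H2-T23 lie to the right of 0 while their diamonds lie to the left, and Hspa1b is spread widest, from -4.43 to -0.45.

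The inducible heat shock genes Hspa1a and Hspa1b were among the largest differences. The wider heat shock list differed much less and is given with the other lists below. Hspa1a and Hspa1b encode the same stress-induced HSP70 chaperone from neighbouring copies, so reads can be split between them and the pair is best read together. Hspa1b was past the fold downward in 14 of 15 classes with a median log2 ratio of -2.12, and Hspa1a in 10 of 13 with a median of -2.28. The medians of Hspa1b over classes were 399.5 CPM in ctrl, 202.7 in 2DG, 99.95 in aPDL1 and 17.1 in the combination, the lowest of the libraries. In B cells Hspa1b was at 1256 CPM in ctrl, 226 in 2DG, 63.8 in aPDL1 and 2.78 in the combination, and in proliferating T cells at 276, 166, 80.1 and 3.79 CPM in that order. Spp1 or Arg1 macrophages were the 1 class not past the fold, with 398, 648, 438 and 319 CPM and a log2 ratio of -0.45. Hsph1, an HSP70 co-chaperone gene, was past the fold downward in 12 of 16 classes with a median of -0.68. Hspa5, the HSP70 of the endoplasmic reticulum and a marker of the unfolded protein response, was past the fold in 1 of 16 classes, upward.

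Because Hspa1a and Hspa1b were both lower in most classes, the 250 bases before each start site are shown, from RefSeq on build GRCm38.p6, with Hspa1a at chr17:34972157-34972406 and Hspa1b at chr17:34959239-34959488, both on the minus strand. The capitals mark the single match in each to GAANNTTC, an inverted repeat of the GAA unit that heat shock factors bind. The pattern reads the same on both strands, so a search of the given strand covers both.
Hspa1a: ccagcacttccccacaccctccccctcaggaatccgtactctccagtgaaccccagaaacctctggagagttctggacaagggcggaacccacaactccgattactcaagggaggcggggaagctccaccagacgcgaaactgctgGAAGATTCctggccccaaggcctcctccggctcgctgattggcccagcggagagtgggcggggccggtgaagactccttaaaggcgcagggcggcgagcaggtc
Hspa1b: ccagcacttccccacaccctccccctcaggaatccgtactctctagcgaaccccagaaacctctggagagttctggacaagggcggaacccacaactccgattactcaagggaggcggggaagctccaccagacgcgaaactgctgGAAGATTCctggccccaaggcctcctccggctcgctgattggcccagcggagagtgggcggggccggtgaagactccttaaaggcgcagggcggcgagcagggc
The sequences differ at 3 positions, none of them in the match. The same letters were found in 6.7% of 32841 promoter windows of this length. They were found in 7 of 17 heat shock genes with a window (41.2%), where a gene counted if any of its windows matched. The first share is per window and the other per gene, so they are not measured alike. Hsph1, also past the fold downward in most classes, was among the genes without a match. A match is a description and not a measured site, and its part in the differences was not tested.

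As folds, the shares of the libraries differed most in small populations. B cells were 0.8225% of ctrl cells, 1.77% of 2DG, 2.94% of aPDL1 (95% interval 2.59 to 3.32) and 5.42% of the combination (4.95 to 5.93), 1.85-fold more than in aPDL1. C1q macrophages, tissue macrophages that express complement C1q, were 6.67%, 13.9%, 10.75% and 16.7% in the same order, 1.56-fold more. NK cells were 4.02% and 5.17%, and activated CD4 T cells 3.32% and 3.95%, in aPDL1 and the combination. For B cells and C1q macrophages the combination was the highest of the 4 libraries.

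Other populations were smaller in the combination. Spp1 or Arg1 macrophages, which carry genes typical of tumour-associated and hypoxic macrophages, were 18.8% of ctrl, 0.974% of 2DG, 3.11% of aPDL1 and 0.923% of combination cells, 3.36-fold fewer than in aPDL1. The intervals of 2DG and the combination overlapped. Type 1 dendritic cells, which present antigen to CD8 T cells, were 0.942%, 1.26%, 0.744% and 0.245%, from 62 cells in aPDL1 and 21 in the combination. Migratory dendritic cells were 1.85%, 1.60%, 1.57% and 0.748%, 2.10-fold fewer, and the other libraries had overlapping intervals.

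Among T cells, Eomes CD4 T cells were 0.8225%, 3.44%, 1.37% and 0.596%, and gamma-delta T cells were 0.215%, 0.325%, 0.540% and 0.175%, with only 15 gamma-delta cells in the combination. Because only 6.50% of ctrl cells were T and NK cells, the same classes are also given as shares of T and NK cells: 12.66%, 7.52%, 3.40% and 1.52% for Eomes CD4 T cells and 3.30%, 0.711%, 1.34% and 0.447% for gamma-delta T cells, lower with 2DG on both backgrounds. Regulatory T cells were 27.34%, 17.18%, 11.49% and 9.362% of T and NK cells, and proliferating T cells 4.404%, 6.842%, 6.597% and 5.009%. By that share regulatory T cells were highest in ctrl and lower in 2DG. Of all cells, regulatory T cells were 1.78%, 7.85%, 4.62% and 3.67%, and proliferating T cells 0.286%, 3.13%, 2.65% and 1.96%. CD8 T cells (19.5% and 19.6%), type 2 dendritic cells (4.51% and 4.55%) and resident peritoneal macrophages (0.528% and 0.514%) had overlapping intervals in aPDL1 and the combination. Plasmacytoid dendritic cells (0.396% and 0.444%) had overlapping intervals too, but with 2 times the doublets removed their log2 ratio went from 0.17 to -1.26. Non-classical monocytes were 3.502% and 3.38%, but cluster 20, counted with classical monocytes, had 2 non-classical and 1 classical marker among its 10 leading genes. With it they were 9.5% (8.88 to 10.1) and 7.42% (6.88 to 8), with intervals that no longer overlapped, an alternative chosen after seeing the data. Class shares rest on clusters whose genes also differ between the libraries, so a cell that changed state can be counted in another class.

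**Figure D2:**
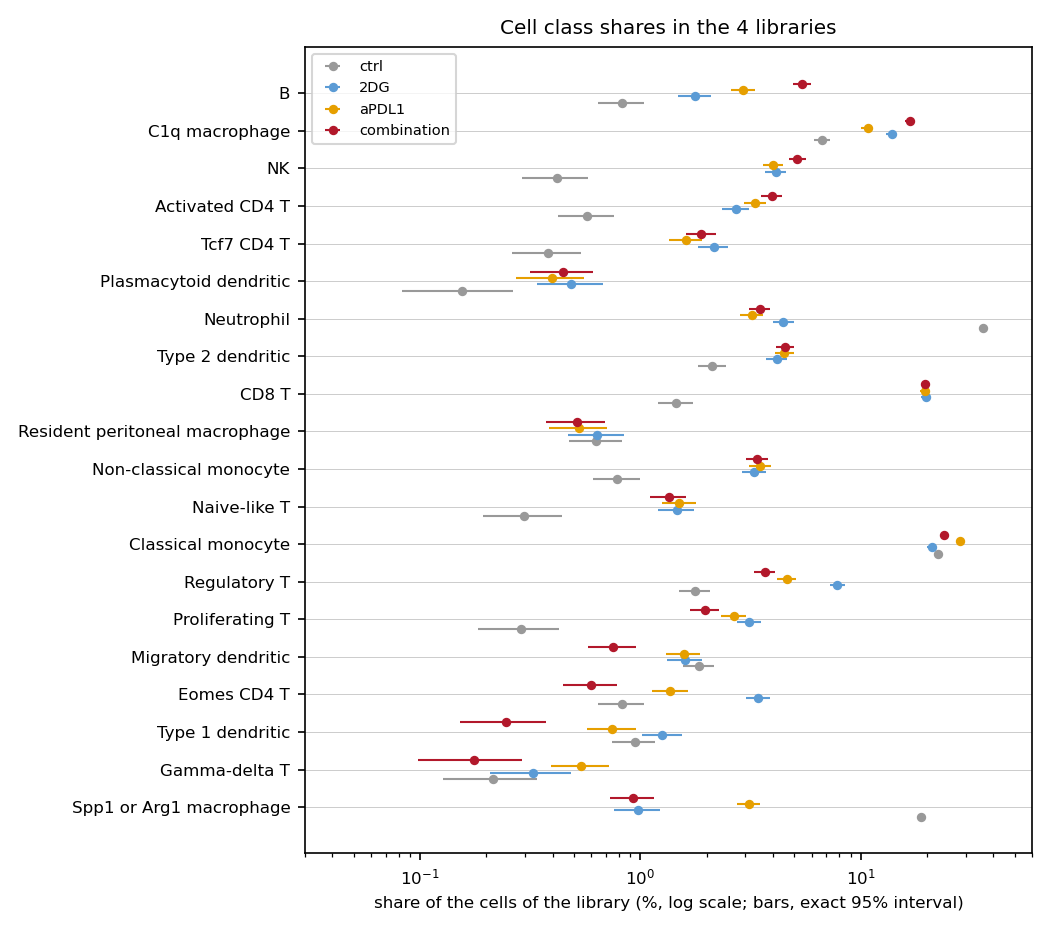
Share of the cells of each library in each class, on a log axis in percent, with exact 95% binomial intervals as bars and 1 colour per library. The red combination points lie right of the orange aPDL1 points for B cells and C1q macrophages at the top, and left of them from regulatory T cells downward to Spp1 or Arg1 macrophages.

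Of the genes of CTLA-4 and PD-1, Ctla4 was past the fold in T and NK cells and Pdcd1 was not, while the list of inhibitory and costimulatory receptors was split, above all genes in 7 of 14 classes and below in 7. Ctla4 was higher in the combination in 8 of 8 T and NK classes, past the fold in each, with log2 ratios from 0.67 to 1.46. Over all 12 classes with enough UMIs, Ctla4 was past the fold upward in 9 and downward in 1. The upward calls were thus not confined to T and NK cells. In regulatory T cells it was at 1757 CPM in ctrl, 1856 in 2DG, 1762 in aPDL1 and 2981 in the combination. In activated CD4 T cells it was at 628, 555, 746 and 1261 CPM, in Tcf7 CD4 T cells at 1007, 494, 371 and 1007 CPM, in Eomes CD4 T cells at 833, 738, 803 and 1441 CPM and in NK cells at 251, 123, 50.9 and 140.4 CPM, in the same order of libraries. The combination was the highest library in regulatory, activated CD4, Eomes CD4, CD8 and proliferating T cells, while ctrl was as high or higher in Tcf7 CD4 T, naive-like T and NK cells. In B cells, where its level was low, it was past the fold downward, at 31.5, 19.6, 70.7 and 28.98 CPM. Of its aPDL1 UMIs in B cells, 39.5% lay in 1 cell.

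Pdcd1, the gene of PD-1, was past the fold in 0 of 6 classes, with log2 ratios from -0.53 to 0.23; in activated CD4 T cells it was at 264, 277, 399.6 and 419.7 CPM. Cd274 was past the fold in 0 of 15 classes, from -0.28 in regulatory T cells to 0.54 in C1q macrophages. Pdcd1lg2, which encodes the other PD-1 ligand PD-L2, was past it upward in 3 of 11. Foxp3, the defining factor of regulatory T cells, had a log2 ratio of -0.09 there.

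Cd86, the costimulatory ligand of CD28 and CTLA-4, was higher in 10 of 12 classes but past the fold in C1q macrophages only, at 729.5 CPM in ctrl, 850 in 2DG, 737 in aPDL1 and 1359 in the combination. In migratory and type 2 dendritic cells and in B cells its log2 ratios were 0.55, 0.53 and 0.48, under the fold. Gzmb, the gene of the killer protease granzyme B, was higher in 6 of 6 classes and past the fold in NK cells, at 2512, 2545, 2265 and 3450 CPM. Prf1, the pore-forming partner of the granzymes, was not higher with it in NK cells (1304, 1906, 2056 and 1846 CPM). Ifng was past the fold upward in 0 of 6 classes and downward in 1.

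**Figure D3:**
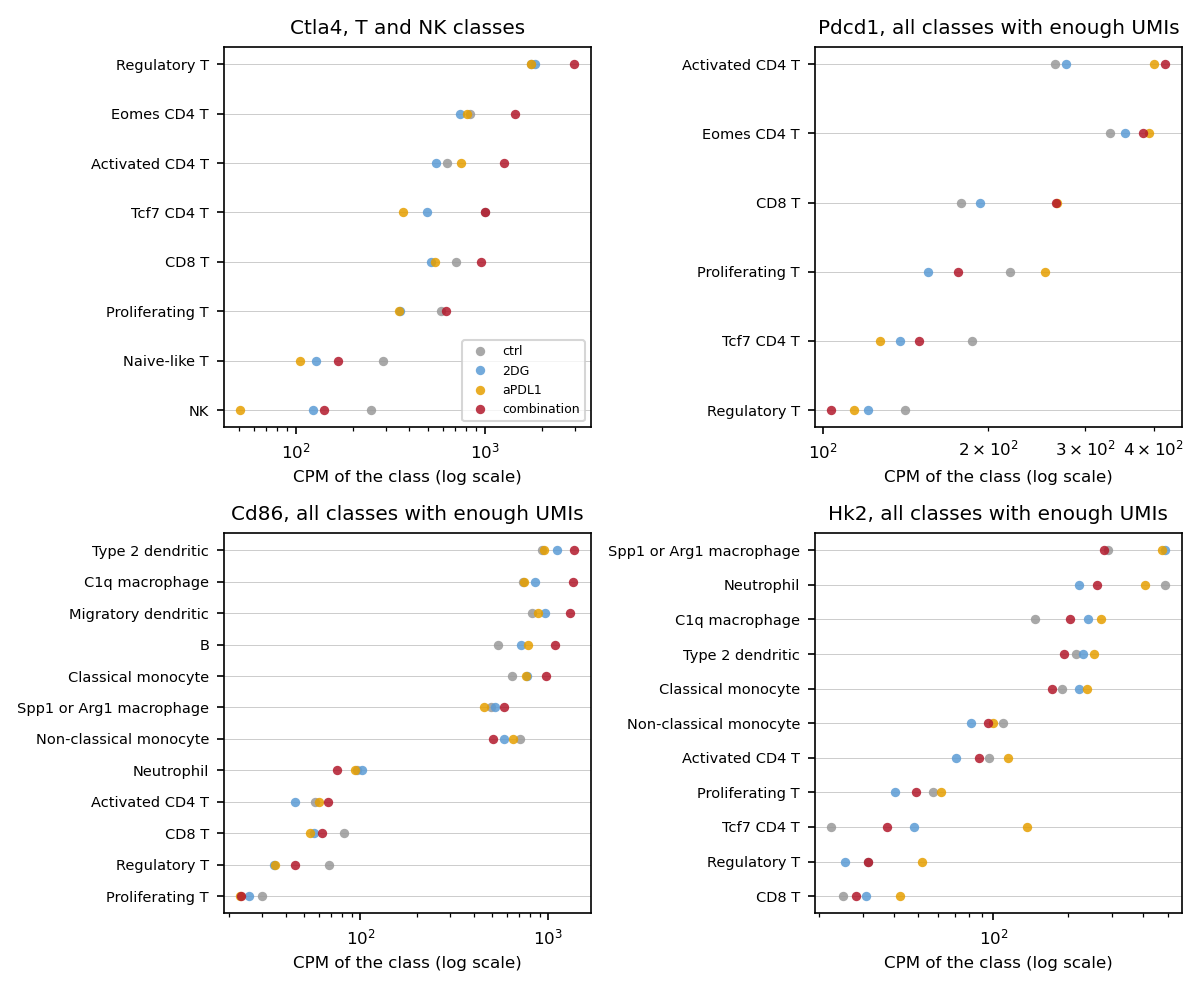
CPM of Ctla4, Pdcd1, Cd86 and Hk2 in each class with enough UMIs (for Ctla4, T and NK classes only), on log axes, with 1 point per library. The red combination points of Ctla4 lie right of the orange aPDL1 points in every T and NK class, those of Pdcd1 differ from them by log2 ratios of -0.53 to 0.23, and those of Hk2 lie left of them.

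Genes of sugar metabolism differed modestly. Hk2, the inducible hexokinase that phosphorylates glucose and 2DG, was lower in 11 of 11 classes and past the fold in 5, most in Tcf7 CD4 T cells at 22.4 CPM in ctrl, 48.01 in 2DG, 137 in aPDL1 and 37.4 in the combination. It was at 288, 489, 475 and 277 CPM in Spp1 or Arg1 macrophages and 31.3, 25.3, 51.6 and 31.4 CPM in regulatory T cells. Ldha, lactate dehydrogenase, was past the fold in 0 of 16 classes, and the glucose transporter gene Slc2a1 was past it downward in 1 of 12. Txnip, a glucose-responsive arrestin gene that restrains glucose uptake, was past the fold downward in 4 of 15 classes and upward in Spp1 or Arg1 macrophages, at 56.8, 98.5, 98.1 and 186 CPM.

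The medians of whole gene lists were set beside the median of all genes with enough UMIs in the same class. That median ran from -0.112 in C1q macrophages to 0.114 in neutrophils and was below 0 in most classes. Counts of list members higher, lower or past the fold have that background. The share of all genes past the fold is given with each class below. The glycolysis list was below all genes in 14 of 16 classes, with class medians from -0.39 to -0.01, and in proliferating T cells 6 of 17 genes were past the fold downward. Cholesterol synthesis was below all genes in 8 of 8 classes, from -0.73 in regulatory T cells to -0.11. The Golgi N-glycan branching list was below in 16 of 16, with class medians from -0.48 in Spp1 or Arg1 macrophages to -0.01 in neutrophils. Its median less that of all genes ran from -0.415 in Spp1 or Arg1 macrophages to -0.0095 in B cells, so some classes were barely below. The list of N-glycan precursor and transfer genes was above in 5 of 11 and below in 6. The unfolded protein and integrated stress list was above in 13 of 16 classes with a median of class medians of only 0.01. The cytosolic heat shock list of 20 genes was below in 15 of 16 classes, with class medians from -0.32 to -0.04. In some classes it was barely below, as in CD8 T cells with a median of -0.078 against -0.072 for all genes.

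Several lists were above all genes in nearly every class. The immediate early list was above all genes in 16 of 16 classes, with medians from 0.225 to 0.755, and NF-kB targets and feedback genes in 16 of 16, from 0.10 to 0.59. Within the immediate early list, Fos and Junb were higher in 16 of 16 classes (log2 0.08 to 1.44 and 0.08 to 1.06), whereas Jun was lower in 12 of 16 (-0.74 in type 2 dendritic cells, 0.03 in B cells, 0.36 in proliferating T cells). MHC class I presentation was above in 16 of 16, from 0.07 to 0.47, while the classical gene H2-K1 was past the fold in 0 of 16. Cytosolic ribosomal proteins, nuclear oxidative phosphorylation genes and naive and homing T genes were each above in 15 of 16, and dendritic cell maturation genes in 15 of 15. Type I interferon response genes were above in 13 of 15 classes and interferon gamma response genes in 13 of 16. MHC class II presentation went the other way, below all genes in 8 of 11 and above in 3.

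**Figure D4:**
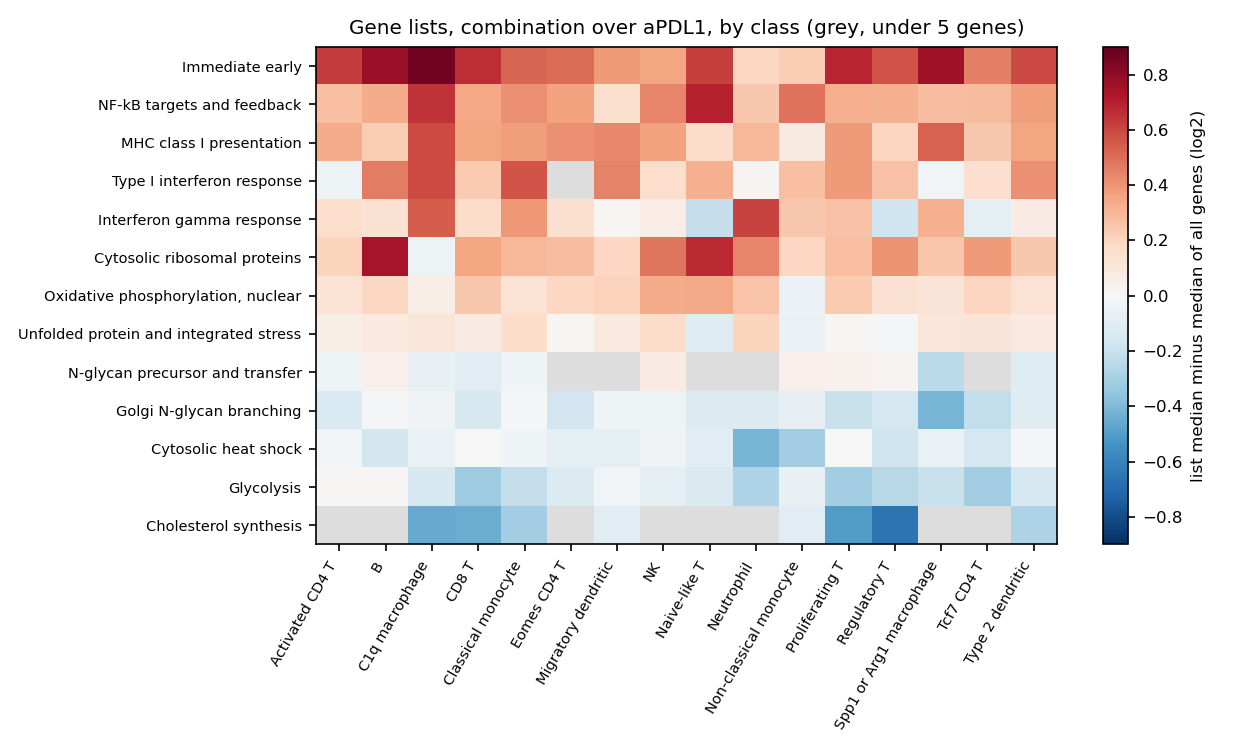
Median log2 ratio of each gene list less the median of all genes in the same class, combination over aPDL1, for the 16 classes; red is higher, blue lower, and grey marks lists with under 5 genes. The top row, immediate early genes, is red in every class, and the bottom rows, glycolysis and cholesterol synthesis, are mostly blue.

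B cells had 413 genes past the fold upward (7.22%) and 504 downward (8.81%) of 5719; 45.0% of the calls were upward, and 69.4% after scaling with TMM factors, which moved the median of all genes by 0.11. Ribosomal protein genes were higher as a body: 58 of 58 were higher and 37 past the fold, with a median log2 ratio of 0.66 against -0.08 for all genes. Rps24 was at 3628 CPM in ctrl, 2558 in 2DG, 2278 in aPDL1 and 4591 in the combination. Il5ra, the interleukin 5 receptor, was at 68.3, 78.4, 75.1 and 257 CPM, S100a6 at 481, 464, 229 and 972 CPM, Plac8 at 502, 509.8, 434 and 924 CPM and Vim at 149.7, 204, 188 and 585 CPM. Cr2, the complement receptor of follicular and marginal zone B cells, was at 116, 142, 153 and 90.5 CPM and Cd22, an inhibitory receptor, at 249.6, 234, 350.2 and 242 CPM. Of the 24 measured genes of B cell identity and subsets, 10 were higher and 14 lower, 3 and 1 past the fold.

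Activation genes of B cells went both ways, 10 higher and 10 lower of 20, with 2 past the fold upward and 3 downward. Myc, the growth factor-responsive regulator, was at 118 CPM in ctrl, 61.8 in 2DG, 35.8 in aPDL1 and 127 in the combination, and Nr4a1, induced by antigen receptor signalling, at 155, 112, 77.7 and 189 CPM. Il2ra and Tnfrsf13c, the BAFF receptor, were lower, with 13.1, 19.6, 38.4 and 21.8 CPM and 76.2, 137, 127 and 75.03 CPM; the Il2ra difference reversed when only cells with at least 1000 genes were kept. Slc15a2, a peptide transporter gene, was at 228, 43.7, 96.9 and 3.97 CPM, and it was lower in each of the 8 classes where it had enough UMIs. Class-switched immunoglobulin genes were lower, with Ighg2c at 65.5 and 13.9 CPM and Igha at 64.6 and 10.7 CPM in aPDL1 and the combination, beside 7 and 1 plasma cells in those libraries; the part of plasma cell RNA was not tested.

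NK cells had 348 genes upward (6.46%) and 378 downward (7.01%) of 5389; 47.9% of calls were upward, and 67.2% with TMM factors. Stat5a, which carries interleukin 2 and interleukin 15 signals, was at 50.1 CPM in ctrl, 33.4 in 2DG, 18.5 in aPDL1 and 74.9 in the combination, and Nr4a1 at 115, 63.8, 75.4 and 230.5 CPM. The chemokine genes Ccl4 and Ccl3 were higher (582, 1670, 2074 and 3890 CPM; 186, 329, 508 and 792 CPM), whereas Ccl9 was lower at 105, 95.96, 136 and 35.8 CPM. Of 19 cytotoxic effector genes 13 were higher, with 4 past the fold upward and 1 downward, and of 23 NK receptor genes 15 were higher with 0 past it. All 58 ribosomal protein genes were higher, 16 past the fold. Gzmc had a log2 ratio of 2.68, but its UMIs came from 19 combination cells, 48.2% of them from 1 cell, and the direction reversed when doublets were kept; granzymes are also a family of close copies.

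Regulatory T cells had 268 genes upward (4.89%) and 442 downward (8.06%) of 5482; 37.7% of calls were upward, and 50.2% with TMM factors. Beside Ctla4, the higher genes included Areg, which encodes the tissue-repair factor amphiregulin (229.8 CPM in ctrl, 256 in 2DG, 328 in aPDL1 and 819 in the combination), Tnfrsf9, encoding the costimulatory receptor 4-1BB (915, 879.7, 1002 and 1712 CPM), and Lrrc32, which tethers latent TGF-beta (33.95, 45.2, 39.5 and 71.4 CPM). S1pr1, the receptor that lets lymphocytes leave tissue, was at 20.9, 17.9, 6.85 and 35.7 CPM and its regulator Klf2 at 255, 109.6, 107 and 283 CPM. Ccl4 and Ccl3 were higher too, though 24.9% of the combination's Ccl4 UMIs came from 1 cell. In the list of regulatory T effector genes, 16 of 28 were higher, with 4 past the fold upward and 1 downward.

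The cholesterol synthesis genes of regulatory T cells were lower: 7 of 8, 4 past the fold, with a median of -0.73 against -0.07 for all genes. Hmgcs1, an early enzyme of the pathway, was at 20.9 CPM in ctrl, 38.1 in 2DG, 39.5 in aPDL1 and 17.1 in the combination, and Srebf2, its master regulator, at 115, 128, 121 and 62.1 CPM. Fdft1, which starts the sterol branch, was at 30.03, 30.4, 35.3 and 12.8 CPM, and for Hmgcs1 and Fdft1 the combination was the lowest library. Glycolysis genes were lower in 14 of 17, with 2 past the fold and a median of -0.32. Interferon gamma response genes were lower in 14 of 19, with 1 past the fold in each direction and a median of -0.25. Of all genes of the class, 8.06% were past the fold downward and 4.89% upward. Counts past the fold this small do not stand apart from those shares.

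Activated CD4 T cells had 332 genes upward (5.96%) and 355 downward (6.37%) of 5571; 48.3% of calls were upward, and 68.2% with TMM factors. Of 5 chemokine genes 3 were higher and 2 lower, with 3 past the fold upward and 1 downward. Ccl3 was at 90.2 CPM in ctrl, 310.2 in 2DG, 429 in aPDL1 and 1294 in the combination, Ccl4 at 126, 540.2, 860 and 2035 CPM and Ccl9 at 9.02, 26.5, 19.7 and 99.3 CPM. T helper cytokine genes were split, 6 higher and 6 lower, with Il10, the regulatory cytokine, at 0, 4.08, 9.54 and 26.5 CPM, and the type 2 cytokine Il13 at 27.1, 97.97, 60.8 and 22.9 CPM. Xcl1, which attracts type 1 dendritic cells, was at 66.1, 133, 43.5 and 14.6 CPM, and Lta, lymphotoxin alpha, at 27.1, 51.02, 47.7 and 20.8 CPM. Havcr2, which encodes the inhibitory receptor TIM-3, was at 117, 154, 212 and 314 CPM with a log2 ratio of 0.56, under the fold. Ccl1 was lower at 619, 682, 368 and 56.7 CPM, with 25.6% of its aPDL1 UMIs in 1 cell, and Gzme and Gzmd were carried by 4 and 3 combination cells.

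Tcf7 CD4 T cells, which keep the memory-associated factor Tcf7, had 202 genes upward (8.53%) and 259 downward (10.9%) of 2367; 43.8% of calls were upward, and 54.5% with TMM factors. The interferon-induced gene Ifi27l2a was at 231 CPM in ctrl, 289.6 in 2DG, 277 in aPDL1 and 757 in the combination, and Btla, another inhibitory receptor gene, at 142, 91.4, 91.8 and 199.7 CPM. Tbx21, which encodes the T-bet factor, was at 112, 201, 164 and 81.2 CPM and Ifng at 74.6, 83.6, 107 and 61.7 CPM, while T helper cytokine genes were split, 3 higher and 2 lower of 5. Cd226, an activating receptor gene, was at 373, 616, 394 and 170.5 CPM, and Pde3b, a phosphodiesterase gene, at 1454, 819, 617 and 244 CPM. In this class 5 of 6 cytotoxic effector genes were lower, 2 past the fold.

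Eomes CD4 T cells, with 114 cells in aPDL1 and 51 in the combination, had 130 genes upward (5.81%) and 252 downward (11.3%) of 2236. Of these calls 34% were upward, but 53% were without the UMI minimum, so the split depended on that filter. The class had 538247 UMIs in aPDL1 and 258846 in the combination, and the part of this was not tested. Icos, which encodes a costimulatory receptor, was at 307 CPM in ctrl, 382 in 2DG, 520.2 in aPDL1 and 1190 in the combination, and the chemokine gene Ccl5 at 5700, 11620, 11660 and 14970 CPM. The ubiquitin ligase gene Uhrf2 was at 653, 429, 474 and 1116 CPM and Vav3, a signalling adaptor gene, at 228, 208, 258 and 73.4 CPM. Cytotoxic effector genes were higher in 10 of 16, 3 past the fold.

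Naive-like T cells had 186 genes upward (7.93%) and 301 downward (12.8%) of 2346; 38.2% of calls were upward, and 59.1% with TMM factors. Ccr7, the receptor that guides naive cells to lymph nodes, was at 145 CPM in ctrl, 62.7 in 2DG, 112 in aPDL1 and 209.5 in the combination, Il7r at 691, 453, 521 and 907 CPM and Klf2 at 507, 471, 494 and 935 CPM. The NF-kB inhibitor gene Nfkbia was at 212, 439, 393 and 731 CPM, and 7 of 13 genes of the NF-kB list were past the fold upward and 2 downward. All 58 ribosomal protein genes were higher, 27 past the fold. Tbx21 was at 267, 144, 172 and 104 CPM, and Zbtb16, which marks innate-like T cells, at 55.7, 188, 151 and 51.02 CPM from 15 and 10 cells.

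Proliferating T cells had 298 genes upward (4.43%) and 511 downward (7.59%) of 6729. Their cell cycle genes were near even, 19 of 31 higher with 0 past the fold, and Mki67 was at 1428 CPM in ctrl, 921 in 2DG, 773 in aPDL1 and 937 in the combination. Glycolysis genes were lower in 17 of 17, 6 past the fold, including Pdk1, which diverts pyruvate from mitochondria (42.3, 18.7, 22.2 and 7.59 CPM), and Slc16a3, a lactate exporter (49.7, 35.5, 56.4 and 27.03 CPM). Emb, an adhesion-related chaperone of monocarboxylate transporters, was at 99.5, 324, 268 and 934 CPM, and it was past the fold upward in B, NK, CD8, activated CD4, regulatory, Eomes CD4 and naive-like T cells as well (log2 1.21, 0.88, 1.14, 0.91, 0.98, 1.41 and 0.70). Cholesterol synthesis genes were lower in 13 of 14, 6 past the fold.

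Type 2 dendritic cells had 400 genes upward (5.66%) and 694 downward (9.83%) of 7062; 36.6% of calls were upward, and 52.9% with TMM factors. Of 13 chemokine genes 7 were higher and 6 lower, with 4 past the fold upward and 3 downward. Ccl4 was at 243 CPM in ctrl, 391 in 2DG, 154 in aPDL1 and 629.9 in the combination and the neutrophil attractant Cxcl2 at 724, 124, 127 and 458 CPM. Of the chemokines that draw CCR4-bearing T cells, Ccl17 was at 1147, 557, 646 and 192 CPM and Ccl22 at 207, 52.98, 122 and 34.5 CPM. Cell cycle genes were lower in 11 of 13, with 8 past the fold downward and 1 upward, such as Top2a at 108, 30.7, 29.5 and 10.4 CPM. Cd209a, a lectin that marks these cells, was at 236, 289.7, 305 and 552 CPM, whereas the lectin gene Mgl2 was at 737, 679, 421 and 238 CPM. The summed neutrophil markers were 1247 CPM in aPDL1 and 1644 in the combination here, the highest outside neutrophils, and their part in the chemokine difference was not tested.

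Migratory dendritic cells had 179 genes upward (4.89%) and 381 downward (10.4%) of 3657, from 131 and 64 cells. Of these calls 32% were upward, but 49.1% were without the UMI minimum, with 1184752 class UMIs in aPDL1 and 545362 in the combination. Type I interferon response genes were higher in 13 of 13, 4 past the fold, among them Isg15 at 144 CPM in ctrl, 195 in 2DG, 119.9 in aPDL1 and 325 in the combination. MHC class II genes were higher in 9 of 10 but 0 passed the fold, as for H2-Ab1 at 1445, 1531, 2069 and 2925 CPM and Cd74 at 4564, 5375, 6411 and 8097 CPM. Of 27 dendritic cell maturation genes 20 were higher, with 1 past the fold in each direction. Il12b, a subunit of interleukin 12, was at 352, 402, 179 and 309.9 CPM. Fscn1, an actin bundler of mature dendritic cells, was at 1249, 1845, 1522 and 1040 CPM. Selenom was at 65.3, 150.4, 104 and 405 CPM, while Prkg1, Spock1 and Dkk2 each had at least 50% of their UMIs in 1 cell of the higher library.

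C1q macrophages had 548 genes upward (5.57%) and 971 downward (9.87%) of 9835; 36.1% of calls were upward, and 62.0% with TMM factors, which moved the median of all genes by 0.16. Type I interferon response genes were higher in 26 of 29, 12 past the fold, with Rsad2 at 42.6 CPM in ctrl, 113 in 2DG, 44.3 in aPDL1 and 147 in the combination and Isg15 at 50.3, 128, 105 and 240.2 CPM. The inflammatory genes Il1b and Cxcl2 were at 328, 507, 543 and 1549 CPM and 1375, 968, 1424 and 3201 CPM, and 13 of 26 NF-kB list genes passed the fold upward. Ccl17 was at 124, 37.6, 104 and 0.987 CPM, from 55 aPDL1 and 6 combination cells, Mgl2 at 453, 171, 299 and 47.4 CPM and Fgf13 at 250, 77.98, 148 and 17.9 CPM. Cxcl13 had 0 UMIs in aPDL1, but 92.9% of its combination UMIs lay in 1 cell.

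The class was made up differently in the 2 libraries. Cluster 24 held 45.0% of its cells in aPDL1 and 78.8% in the combination, and cluster 8 held 34.7% and 13.1%, which is 4.83% and 13.2% of all cells for cluster 24 and 3.73% and 2.19% for cluster 8. Within these clusters several list medians were smaller than in the whole class. The interferon gamma median was 0.43 in the class, 0.21 within cluster 24 and -0.18 within cluster 8. In that order the type I interferon median was 0.48, 0.24 and 0.31, and the cell cycle median was -0.87, 0.21 and -0.10. The immediate early list held its size, with 0.755, 0.60 and 0.81, and glycolysis was lower within both, with -0.26, -0.36 and -0.60. Cell cycle, interferon gamma and type I interferon medians were thus closer to 0 within the clusters than in the class. The type I interferon, immediate early and glycolysis medians kept their sign in both. Single genes also had smaller ratios within the clusters. In the class, cluster 24 and cluster 8, log2 ratios were -2.66, -1.33 and -1.49 for Mgl2 and -3.05, -1.51 and -2.17 for Fgf13. They were -6.67, -5.15 and -5.42 for Ccl17. For Cd86 they were 0.88, 0.80 and 0.56, the last under the fold.

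**Figure D5:**
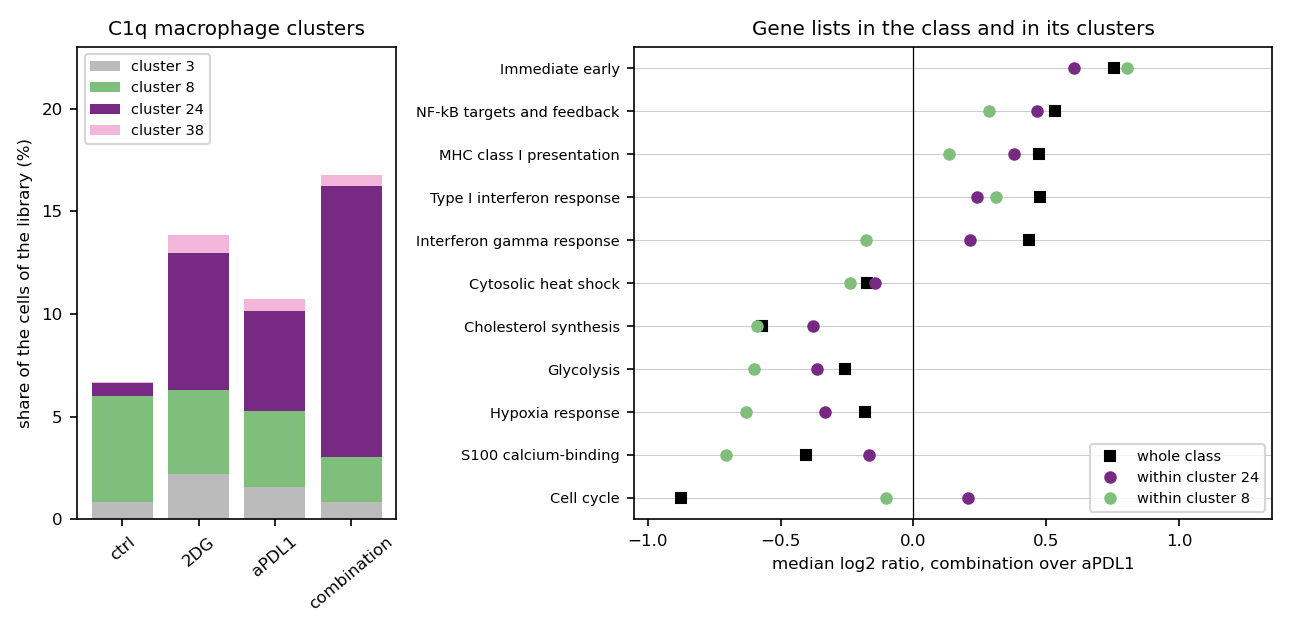
Left, the share of each library's cells in the 4 clusters of the C1q macrophage class, in percent; right, the median log2 ratio of gene lists, combination over aPDL1, in the whole class and within clusters 24 and 8. The purple cluster 24 fills most of the combination bar, and the cell cycle square at -0.87 lies far from the points within the clusters.

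Spp1 or Arg1 macrophages, with 259 and 79 cells, had 264 genes upward (6.12%) and 521 downward (12.1%) of 4311. Of these calls 33.6% were upward, but 52.3% were without the UMI minimum, with 1611237 class UMIs in aPDL1 and 552389 in the combination. Slc7a11, the cystine importer, was at 746 CPM in ctrl, 442 in 2DG, 269 in aPDL1 and 1188 in the combination, Hmox1, heme oxygenase, at 1814, 3025, 776 and 2044 CPM, and Gclm, a subunit of the enzyme that starts glutathione synthesis, at 53.7, 71.5, 17.4 and 97.8 CPM. For all 3 genes aPDL1 was the lowest library, and Slc7a11 and Gclm were highest in the combination while Hmox1 was highest in 2DG. Slc7a11 was higher in 7 of 7 classes with enough UMIs, while Gclm had a median of -0.07 over the other classes. The chemokine gene Ccl24 was lower at 774, 670.4, 789 and 95.95 CPM, from 65 and 13 cells. B4galt1, a galactosyltransferase gene of N-glycan branching, was at 308, 502, 398 and 194 CPM, and 5 of 13 genes of that list were past the fold downward. H2-Aa was lower at 197, 763, 489.7 and 289.7 CPM, but that direction reversed under 4 of the alternatives, and 5 of 7 MHC class II genes were past the fold downward.

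Non-classical monocytes, which patrol blood vessels, had 301 genes upward (6.17%) and 254 downward (5.21%) of 4879. With cluster 20 included the number past the fold was 680 against 555, and 41.9% of calls were upward against 54.2%. NF-kB list genes were higher in 21 of 25, 8 past the fold. Tnip3, an NF-kB inhibitor gene, was at 59.3 CPM in ctrl, 57.4 in 2DG, 88.5 in aPDL1 and 282 in the combination, the endotoxin co-receptor gene Cd14 at 401, 151, 94.8 and 257 CPM and Cxcl10, an interferon-induced chemokine gene, at 2.28, 28.3, 36.8 and 102 CPM. Hspa1b was at 1063, 590.4, 471 and 54.3 CPM, and heat shock list genes were lower in 16 of 18, 3 past the fold. Supv3l1, a mitochondrial RNA helicase gene, was at 13.7, 35.8, 57.98 and 11.2 CPM. With cluster 20 the log2 ratio of Supv3l1 was -1.61 against -2.34, and that of Cd14 0.99 against 1.44.

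CD8 T cells had 491 genes upward (5.22%) and 546 downward (5.8%); 47.3% of calls were upward, and 62.7% with TMM factors. Classical monocytes and neutrophils each held a cluster whose leading genes had more markers of another class (clusters 20 and 7), so these classes are not compared gene by gene under their names. They stay among the 16 classes counted above, and with these clusters and cluster 26, which had 2 aPDL1 and 0 combination cells of the Spp1 or Arg1 class, left unnamed, 35 genes were again higher and 21 lower in at least 10 classes. As background to those counts, 3.9% of genes were past the fold upward and 8.87% downward in cells under the first name (30.6% of calls upward, 49.1% with TMM factors). Under the second name they were 16.1% and 8.47% (65.5% of calls upward, 38% with TMM factors, which moved the median of all genes by -0.19). Type 1 dendritic, plasmacytoid dendritic, gamma-delta T and resident peritoneal macrophage classes had under 50 cells on at least one side, so only their shares are given.

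The genes named per class often differed in other classes too. In the 13 classes other than CD8 T cells, classical monocytes and neutrophils, 130 gene and class pairs were named by rank, 101 different genes, and for 80 pairs the median over the other classes was also past the fold in the same direction. Il5ra in B cells, Ccl9 in NK cells, S1pr1 in regulatory T cells, Emb in proliferating T cells and Gclm in Spp1 or Arg1 macrophages were among the other 50. For 12 pairs, at least 50% of the UMIs of the higher library lay in 1 cell.

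Marker genes of other cell types were present in each class. Summed neutrophil markers outside neutrophils were 19.3 to 1247 CPM in aPDL1 and 7.29 to 1644 in the combination, highest in type 2 dendritic cells. Summed C1q macrophage markers were 29.5 to 359 CPM in aPDL1 and 27.0 to 162.8 in the combination over the 9 lymphoid classes, against 12020 and 11760 in C1q macrophages. Summed T cell markers outside T and NK cells were 28.3 to 83.8 and 20.01 to 55.5 CPM, and summed B cell markers outside B cells 5.57 to 51.7 and 5.43 to 47.1. Their part in the results was not tested.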

How the data were processed

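The deposited matrices hold counts, UMIs per gene and barcode, which the authors made with Cell Ranger; per the file headers the version was 7.0.0, and per the submitters' processing notes it was 3.1.0 with build mm10. The sources used here do not state how intronic reads were treated. Barcodes were kept from 500 genes upward and up to 10% mitochondrial UMIs. Doublets were scored with Scrublet in scanpy 1.11.5, and the highest scores were removed at 0.8% per 1000 barcodes. Cells were clustered over all 4 libraries (Leiden resolution 2, 2000 variable genes, 30 components, 15 neighbours, no integration, 39 clusters), and clusters were named from 28 marker lists. T cell clusters were clustered again at resolution 1, a step chosen after seeing the data.

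UMIs were summed per class and library and scaled to counts per 1000000. Log2 ratios have 0.5 added to each count, with exact binomial intervals at 95% from scipy 1.17.1, which cover counting error only. Classes needed 50 cells on each side, and genes 50 UMIs in the higher library. Medians of lists with at least 5 genes were set beside those of all genes. The scripts were tested on simulated data. With 1 library per group no test across samples was made.

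Named genes were up to 5 per direction and class past 1.5-fold, ranked by the interval bound nearest to no difference, up to 15 per direction across classes, 30 genes always given, and list members shown as examples; a few are not reported here. Other genes described in a class were chosen after their values were seen. Members and lists were chosen with earlier results of these data known. Alternatives were doublet removal, cell filters, resolution, TMM factors (edgeR 4.0.16, R 4.3.3), the UMI minimum and a mean over cells; other namings of 3 clusters were added after seeing the data.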

Additional observations from a re-analysis of the deposited data

Results flagged for a closer look

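Some differences between the combination and aPDL1 ran opposite to the difference between 2DG and ctrl, which is the same addition of 2DG without the antibody. Each rests on 1 library per group, and the difference between these contrasts was not tested. The share of Eomes CD4 T cells had a log2 ratio of -1.20 with the antibody and 2.06 without it, and that of gamma-delta T cells -1.62 and 0.60. Both are shares of all cells, and only 6.50% of ctrl cells were T and NK cells. Of T and NK cells alone, Eomes CD4 T cells were 12.66% in ctrl, 7.52% in 2DG, 3.40% in aPDL1 and 1.52% in the combination, and gamma-delta T cells 3.30%, 0.711%, 1.34% and 0.447%, lower in both contrasts. As medians over classes, Zfp36 had log2 ratios of 1.40 and -0.97, Mpp7 of 1.07 and -0.76, H2-T23 of 1.52 and -0.70, and Ost4 of 1.05 and -0.84.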

How the results depend on the processing

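No paired analysis was possible because each group is 1 library. Of the values of single genes under the alternatives, 4477 kept their direction and size, 405 moved and 14 reversed. The 4477 include 457 values without a UMI minimum and 457 with at least 200 UMIs. The UMI minimum does not enter a log2 ratio, so these values could not change. Also included are 443 and 444 values under the other cluster namings, which leave the cells of most classes as they were. The 4477 therefore overstate how many values were put to a check. Of class shares 136 were kept and 18 moved. Small classes could not be formed under some alternatives (Eomes CD4 T, Tcf7 CD4 T, gamma-delta T or migratory dendritic cells under other doublet, cell or resolution settings), which give no value there. Causes were not tested.

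Log2 ratios of shares moved as follows. C1q macrophages (0.64) were at 0.41 without doublet removal, 0.49 with 2 times the doublets removed, 0.44 with at least 1000 genes, 0.51 with at most 5% mitochondrial UMIs and 0.43 at resolution 3. Classical monocytes (-0.23) were at -0.03, -0.11, -0.12 (5% mitochondrial), -0.08 (resolution 1) and -0.05 (resolution 3). Non-classical monocytes (-0.05) were at -0.30, -0.36 and -0.44, and at -0.36 with cluster 20 counted among them, which was chosen after seeing the data and put cholesterol synthesis above all genes in 1 class. Leaving clusters 7, 20 and 26 unnamed, chosen likewise, gave 35 genes higher and 21 lower in at least 10 classes, as before. With 2 times the doublets removed migratory dendritic cells were at -1.55 and plasmacytoid dendritic cells at -1.26 (from 0.17). Neutrophils were at 0.43 with at least 1000 genes, and Spp1 or Arg1 macrophages at -1.25 at resolution 3.

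Genes reversed were, without doublet removal, Mki67 in B cells (-0.19) and Gzmc in NK cells (-0.91). With 2 times the doublets removed they were Mki67 in activated CD4 T cells (-0.01), Ifitm6 (1.77), Mmp8 (1.98), Retnlg (0.85) and Scrg1 (0.20) in neutrophils, and H2-Aa (0.42) and Plxdc2 (1.33) in Spp1 or Arg1 macrophages. With at least 1000 genes they were Il2ra in B cells (1.19) and H2-Aa (0.05). H2-Aa was at 0.06 and 0.15 at resolutions 1 and 3, and Plxdc2 at 0.43 at resolution 1.

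Classes with a list median above all genes changed for glycolysis (2) to 1, for heat shock (1) to 2, 3 or 4, for Golgi N-glycan branching (0) to 1 or 4, for cholesterol synthesis (0) to 1, and, with at least 200 UMIs, for type I interferon (13) to 7 and N-glycan precursor genes (5) to 1. A class was counted only where at least 5 genes of the list had enough UMIs. The main setting counted 15 classes for type I interferon and 11 for N-glycan precursor genes. The number counted can differ under each alternative and is not given, so a lower count need not mean that a class changed direction.

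Without a UMI minimum 195 genes were higher and 176 lower in at least 10 classes, and with at least 200 UMIs 18 and 9. The number of genes that could be counted also changes with the UMI minimum and is not given here. The counts under other minimums are therefore not shares, and do not say whether a larger or smaller part of the genes passed the fold. Genes past the fold numbered 687 in activated CD4 T, 917 in B, 1519 in C1q macrophages, 1037 in CD8 T, 1273 in classical monocytes, 382 in Eomes CD4 T, 560 in migratory dendritic, 726 in NK, 487 in naive-like T, 739 in neutrophils, 555 in non-classical monocytes, 809 in proliferating T, 710 in regulatory T, 785 in Spp1 or Arg1 macrophages, 461 in Tcf7 CD4 T and 1094 in type 2 dendritic cells. In that order they were 6806, 6163, 8785, 7547, 7523, 5605, 6042, 6872, 7178, 8064, 6288, 6685, 7023, 6508, 7027 and 7239 without a UMI minimum, and 165, 255, 697, 483, 634, 55, 106, 192, 103, 182, 154, 239, 176, 239, 84 and 373 with at least 200 UMIs. After subtracting each gene's median over the other classes, an alternative chosen after seeing the data, they were 367 in activated CD4 T, 609 in B, 918 in C1q macrophages, 679 in CD8 T, 737 in classical monocytes, 233 in Eomes CD4 T, 363 in NK, 226 in naive-like T, 434 in proliferating T, 329 in regulatory T, 234 in Tcf7 CD4 T and 532 in type 2 dendritic cells.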
